A study of Homo sapiens with 8 samples.

Results

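The DNA replication machinery genes examined here are 49 genes chosen by name for the proteins they encode, out of 20033 protein-coding genes. They encode the factors that mark and license origins, the replicative helicase, the DNA polymerases, the sliding clamp with its loader, and factors that travel with the fork. Binding to them was read from chromatin immunoprecipitation followed by sequencing (ChIP-Seq) of PHF20 and PHF20L1. These homologous readers of methylated lysine occur in NSL complexes, which carry the histone acetyltransferase KAT8. The cells were U2OS, a human osteosarcoma line, in which PHF20 or PHF20L1 carrying a 3xHA tag was overexpressed from a lentiviral vector, and the chromatin was recovered from GFP-sorted cells with an antibody against HA. Of 8 samples, 2 were PHF20 ChIP and 1 was the PHF20 input, all N-terminally tagged. A further 3 were PHF20L1 ChIP, 1 with an N-terminal and 2 with a C-terminal tag, and 2 were PHF20L1 inputs, 1 for each tag position.

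The deposited data are 1 final peak list for each protein, in which the replicates had been combined, and 1 PHF20 replicate that gave few peaks had been set aside before the list was made. The 2 PHF20 ChIP samples equal in number the replicates that then remained. The PHF20 list held 4147 peaks with a median width of 599 bp, and the PHF20L1 list held 723 peaks with a median width of 314 bp. Each peak was given by its chromosome, start and end in the hg38 build, without a height, a score, a read count or a value per replicate. The lists therefore give no read depth, replicate spread or error on any value, no comparison could be tested from them, and a missing peak says only that none was listed. The lists also hold nothing by which the identity of the cells could be checked, and binding of overexpressed tagged protein may differ from that of the endogenous one, which was not tested. A gene was called bound when a peak overlapped, by at least 1 bp, the promoter window of any of its annotated transcripts, which starts 1000 bp before the transcription start site (TSS) and ends 500 bp after it. Positions around a TSS are given along the gene in bp, with the TSS at 0 and negative values upstream.

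Before S phase, the origin recognition complex with CDC6 and CDT1 loads rings of the MCM2-7 helicase onto DNA, and geminin restrains CDT1 so that origins are not licensed again. CDC45 and the GINS complex join MCM2-7 to form the active helicase, the polymerase alpha-primase lays down primers, polymerase epsilon extends the leading strand and polymerase delta the lagging strand. RFC loads the PCNA clamp, RPA coats single-stranded DNA and FEN1 trims the flaps of Okazaki fragments. Many of these genes are classical targets of the E2F transcription factors and are transcribed most strongly around the entry into S phase.

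PHF20 was listed at the promoters of 18 of the 49 genes (36.7%), and PHF20L1 at 1 of them (2.04%). Over all coding genes, PHF20 was at 20.7% and PHF20L1 at 3.82%, and 3.73% carried both. Among the replication genes the only one with both proteins was RFC1, the gene of the large subunit of the clamp loader. PHF20 alone was at 17, neither was at 31, and PHF20L1 alone was at 0 of 49. PHF20L1 alone was also rare over all coding genes, where 747 of the 766 PHF20L1-bound genes carried both. A count of 0 in 49 random draws would allow a share of up to 6.12%, but these genes were chosen by name. Of the PHF20-bound replication genes, 5.56% were also PHF20L1-bound, against 18.0% of the PHF20-bound coding genes, while 97.5% of all PHF20L1-bound coding genes were PHF20-bound. For PHF20L1 the share of the replication genes rests on 1 gene. With peaks of at least 300 bp this share was again 2.04%, against 2.27% of coding genes. With peaks no narrower than the median width of their list it was 2.04%, against 2.11%.

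The 300 bases from 250 bases upstream of the canonical TSS, read in hg38 and printed 5′ to 3′ in the direction of each gene, are shown for the genes to which the results return. The TSS is the base after the first 250. RFC1 (chr4:39366313-39366612, minus strand) held both proteins, and MCM5 (chr22:35399890-35400189, plus strand) had the widest PHF20 peak of the replication genes. MCM2 (chr3:127598161-127598460, plus strand) had a narrow peak over its TSS, GINS3 (chr16:58392221-58392520, plus strand) held the long ETS motif under a peak, and the peaks at ORC1 (chr1:52404374-52404673, minus strand) and FEN1 (chr11:61792661-61792960, plus strand) spanned the starts of divergent genes. MCM3 (chr6:52284693-52284992, minus strand) and MCM6 (chr2:135876394-135876693, minus strand) are subunits of the same helicase without a listed peak. Capitals mark, on either strand, the ETS core TTCCGG, the E-box CACGTG, the cyclic AMP response element (CRE) TGACGTCA and the E2F motifs TTTCCCGC, TTTCGCGC, TTTGCCGC and TTTGGCGC. Where an E2F match on one strand overlaps a match on the other, the capitals run together.
RFC1: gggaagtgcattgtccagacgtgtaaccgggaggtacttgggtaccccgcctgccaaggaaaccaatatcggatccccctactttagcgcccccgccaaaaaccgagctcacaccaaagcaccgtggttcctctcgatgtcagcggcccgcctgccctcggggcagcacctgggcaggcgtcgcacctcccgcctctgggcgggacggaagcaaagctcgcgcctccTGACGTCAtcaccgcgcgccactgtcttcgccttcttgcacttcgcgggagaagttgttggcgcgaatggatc
MCM5: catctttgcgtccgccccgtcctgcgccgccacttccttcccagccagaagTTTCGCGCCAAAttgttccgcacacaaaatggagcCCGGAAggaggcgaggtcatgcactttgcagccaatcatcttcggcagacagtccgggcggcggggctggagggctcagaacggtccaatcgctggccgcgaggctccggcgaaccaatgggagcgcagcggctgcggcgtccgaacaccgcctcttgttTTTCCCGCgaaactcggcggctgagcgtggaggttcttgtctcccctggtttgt
MCM2: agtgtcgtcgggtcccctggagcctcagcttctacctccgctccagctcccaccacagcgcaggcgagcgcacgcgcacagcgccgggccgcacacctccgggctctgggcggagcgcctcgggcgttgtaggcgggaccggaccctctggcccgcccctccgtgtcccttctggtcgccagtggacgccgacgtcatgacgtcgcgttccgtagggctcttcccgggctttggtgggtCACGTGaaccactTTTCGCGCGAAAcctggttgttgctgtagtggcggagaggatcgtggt
GINS3: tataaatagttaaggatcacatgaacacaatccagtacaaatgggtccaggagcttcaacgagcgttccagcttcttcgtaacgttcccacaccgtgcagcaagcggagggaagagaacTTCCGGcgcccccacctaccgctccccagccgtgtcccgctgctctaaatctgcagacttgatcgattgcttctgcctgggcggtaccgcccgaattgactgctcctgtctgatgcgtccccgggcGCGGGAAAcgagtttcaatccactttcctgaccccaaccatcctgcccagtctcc
ORC1: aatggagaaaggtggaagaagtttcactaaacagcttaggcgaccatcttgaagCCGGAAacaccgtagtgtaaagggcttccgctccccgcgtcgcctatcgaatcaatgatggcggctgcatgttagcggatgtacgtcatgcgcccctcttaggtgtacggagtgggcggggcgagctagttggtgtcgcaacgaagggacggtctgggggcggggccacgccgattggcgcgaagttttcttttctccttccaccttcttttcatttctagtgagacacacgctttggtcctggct
FEN1: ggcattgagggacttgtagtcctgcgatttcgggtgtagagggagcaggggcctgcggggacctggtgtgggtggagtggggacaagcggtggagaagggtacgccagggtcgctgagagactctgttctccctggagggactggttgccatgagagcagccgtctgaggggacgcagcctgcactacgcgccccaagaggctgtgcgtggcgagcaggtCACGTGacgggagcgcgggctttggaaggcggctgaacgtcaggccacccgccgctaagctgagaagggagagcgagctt
MCM3: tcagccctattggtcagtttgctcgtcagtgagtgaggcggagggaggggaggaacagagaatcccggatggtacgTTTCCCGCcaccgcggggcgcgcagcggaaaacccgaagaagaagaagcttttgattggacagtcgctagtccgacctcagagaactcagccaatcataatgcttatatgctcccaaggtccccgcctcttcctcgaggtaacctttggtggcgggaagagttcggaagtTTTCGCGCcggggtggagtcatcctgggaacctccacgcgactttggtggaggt
MCM6: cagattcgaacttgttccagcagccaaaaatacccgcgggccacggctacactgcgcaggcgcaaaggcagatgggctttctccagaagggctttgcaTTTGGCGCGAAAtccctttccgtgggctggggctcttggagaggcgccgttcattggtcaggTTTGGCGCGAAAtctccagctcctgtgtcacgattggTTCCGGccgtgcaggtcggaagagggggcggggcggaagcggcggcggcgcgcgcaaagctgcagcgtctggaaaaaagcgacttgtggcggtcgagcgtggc

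PHF20 was spread over 10 of the 12 functional groups of the replication genes, and no promoter peak was listed in the licensing factors or the polymerase alpha-primase. These groups have 3 and 4 genes, too few to read anything from a count of 0 where PHF20 was at 20.7% of all coding genes. In origin recognition, ORC1, which encodes the largest subunit of the complex, and ORC6, which encodes the smallest, carried PHF20 (2 of 6), and ORC2, ORC3, ORC4 and ORC5 did not. None of the 3 licensing genes had a peak, namely CDC6 and CDT1, whose products load the helicase, and GMNN, which encodes geminin. Of the helicase subunits, MCM2, MCM4 and MCM5 were bound (3 of 6) and MCM3, MCM6 and MCM7 were not. MCM8 and MCM9, whose products form a separate helicase that acts in recombination, were both bound, whereas MCM10, which encodes an initiation factor, was not. Of the 5 genes for CDC45 and GINS, CDC45, GINS1 and GINS3 were bound, and GINS2 and GINS4 were not.

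Among the polymerases, none of the 4 genes for the alpha-primase (POLA1, POLA2, PRIM1 and PRIM2) had a peak. For polymerase delta, the accessory subunit genes POLD2 and POLD3 were bound, and POLD1, which encodes the catalytic subunit, and POLD4 were not. For polymerase epsilon, 1 of 4 genes was bound, POLE3, which encodes a histone-fold subunit, while the catalytic POLE and its partners POLE2 and POLE4 were not. Of the clamp and its loader, RFC1 and RFC2 were bound (2 of 6), and PCNA, RFC3, RFC4 and RFC5 were not. RPA3, which encodes the smallest RPA subunit, was bound, and RPA1 and RPA2 were not. FEN1, the flap nuclease gene, was bound, as was WDHD1, whose product links the helicase to the polymerase alpha-primase, but TIMELESS, TIPIN and CLSPN, which encode fork protection and checkpoint factors, were not. Each group has 6 genes or fewer, so 1 gene moves its share widely.

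**Figure D1:**
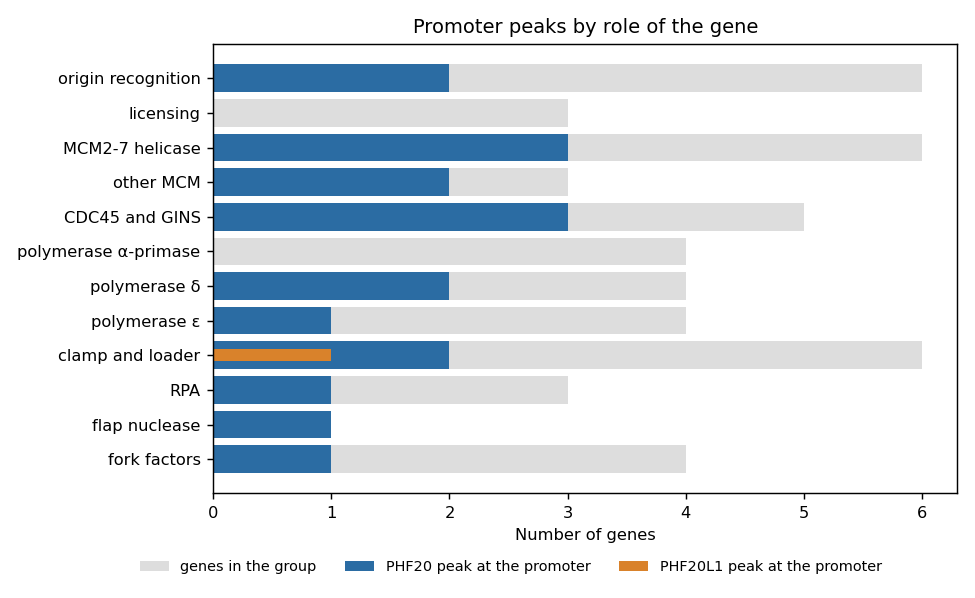
Number of replication genes (horizontal axis) in each functional group (vertical axis), with all genes in grey, those with a PHF20 peak at the promoter in blue and those with a PHF20L1 peak in orange. PHF20 was at 3 of the 6 MCM2-7 genes and 0 of the 3 licensing genes, against 20.7% of coding genes, and the single PHF20L1 peak was in the clamp and loader group.

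RFC1 lies on chromosome 4 (39287456 to 39366375, minus strand), and its PHF20 peak spanned 39365818 to 39366888, 1071 bp, wider than 86.7% of the peaks in the PHF20 list. The peak covered positions -526 to 544 around the canonical TSS and held 5 of the annotated TSSs of the gene. The PHF20L1 peak (39365978 to 39366525) was 548 bp wide, above 90.5% of the PHF20L1 list. It lay entirely within the PHF20 peak, covered 51.2% of it, and had its centre 102 bp further downstream. Both peaks include the TSS of RFC1, and the promoter printed above holds a CRE whose first base is at position -23, with no E2F match. For the 17 genes with PHF20 alone, the PHF20L1 list had no peak nearby, the closest lying 45800 bp from the promoter window and the median distance being 811420 bp. Such distances were not compared with those of coding genes.

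In the PHF20 list, 21 distinct peaks were at the promoters of replication genes and 3562 at those of coding genes. Their median width was 669 bp (range 262 to 1362, quartiles 353 and 852), against 635 bp (range 200 to 2207, quartiles 416.25 and 920) over all coding promoters, and 11 of the 21 were wider than the latter median. The widths at replication genes thus covered much of the range of widths at coding promoters in general. Of the peaks of at least 1000 bp, 1 of the 3 at replication genes and 270 of the 681 at coding genes (39.6%) overlapped a PHF20L1 peak, and over all widths 587 of the 3562 did (16.5%). RFC1 was the gene with the overlap. Neither of the other wide peaks, at MCM5 and WDHD1, overlapped one.

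**Figure D2:**
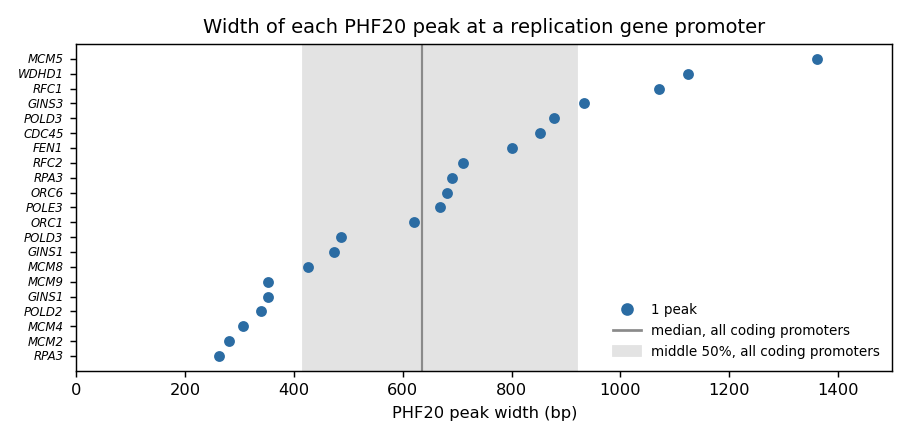
Width in bp (horizontal axis) of each PHF20 peak (point) at the promoter of a replication gene (vertical axis), with the median (line) and middle 50% (band) of widths at all coding promoters. The 21 peaks of replication genes run from 262 bp at RPA3 to 1362 bp at MCM5, with a median of 669 bp against 635 bp at coding promoters.

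The widest PHF20 peak of a replication gene was at MCM5 on chromosome 22 (35399256 to 35400617, 1362 bp), in the top of the list at the 97.0 percentile. It covered positions -884 to 477 around the canonical TSS, holding 6 annotated TSSs and no promoter of another coding gene. The next was at WDHD1 on chromosome 14 (55026705 to 55027828, 1124 bp), which also held the TSS of SOCS4 on the opposite strand. The GINS3 peak on chromosome 16 (58391997 to 58392929, 933 bp) was nearly centred on the canonical TSS, with its middle at position -8. POLD3 on chromosome 11 had a pair of peaks, one of 878 bp (74592309 to 74593186) that held the canonical TSS and one of 487 bp (74493257 to 74493743) whose centre lay at position -99082. The distant one lay upstream of the first annotated TSS of POLD3, with its centre at position -351 from that TSS and without reaching it, and the nearest coding TSS to it was that of LIPT2. The wide peaks thus differed in what they covered, from 1 promoter at MCM5 to a divergent pair at WDHD1.

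The narrowest was at RPA3 on chromosome 7, where peaks of 262 bp (7640188 to 7640449) and 691 bp (7640654 to 7641344) lay side by side. The centre of the narrow one was 259 bp downstream of an RPA3 TSS at position 78030, and that of the wider one was 27 bp from another RPA3 TSS and the peak held 3 of them. Both touched the promoter of UMAD1, and no peak was listed at the canonical RPA3 promoter. The MCM2 peak on chromosome 3 (127598402 to 127598682) was 281 bp wide and covered positions -9 to 271 around the canonical TSS, with its centre in an intron. MCM2 was thus among the genes with the narrowest peaks and MCM5, its partner in the helicase, had the widest. The MCM4 peak was 306 bp wide and centred at position -985, closer to the TSS of PRKDC. GINS1 on chromosome 20 carried 1 peak of 473 bp (25407544 to 25408016) over its canonical TSS and another of 352 bp (25391079 to 25391430) centred at position -16419, with a distant GINS1 TSS as the nearest, 246 bp away, and touching the promoter window of ABHD12.

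The canonical TSS itself was inside a PHF20 peak in 12 of the 49 replication genes (24.5%), against 13.3% of coding genes. Among bound genes these were 66.7% of the replication genes and 64.4% of the coding genes. The centres lay a median of 154 bp (range 4 to 732) from the nearest TSS of the gene, against a median of 120 bp for coding genes. Of these centres, 14 lay upstream and 7 downstream, and this split was not compared with that of coding genes. The most distant was ORC6, at 732 bp, where the nearest coding TSS was that of VPS35. MCM9, like RPA3, was bound only at a TSS far from the canonical one, since its peak of 353 bp on chromosome 6 (118894017 to 118894369) lay 40966 bp downstream, in an intron of MCM9 at the promoter of ASF1A. For MCM9 and RPA3, the call therefore depends on which transcripts are counted as the gene.

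**Figure D3:**
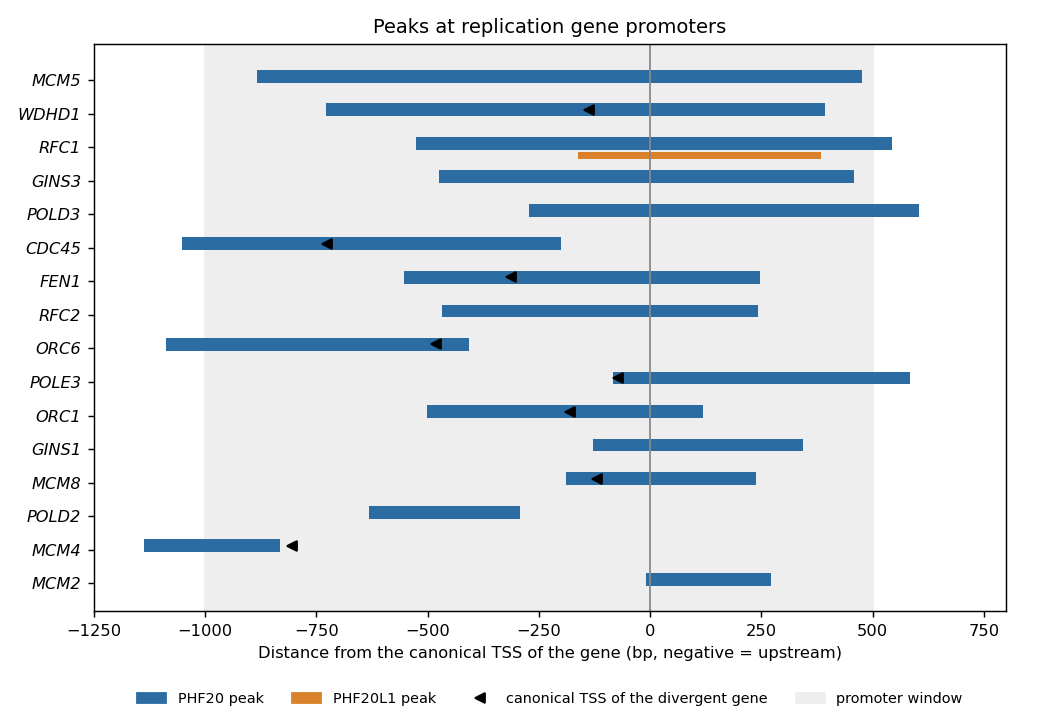
Extent of PHF20 and PHF20L1 peaks relative to the canonical TSS (horizontal axis, distance in bp along the gene, upstream negative) for the replication genes with a peak near that TSS (vertical axis), with canonical TSSs of divergent partners marked by triangles and the promoter window shaded. MCM9, RPA3 and the distant second peaks of GINS1 and POLD3 lie outside the range drawn, and most peaks cover the TSS or lie just upstream of it.

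Replication genes often shared a promoter region with a gene on the opposite strand. A divergent coding partner, whose TSS lies within 1000 bp upstream of a TSS of the gene, was annotated for 21 of the 49 (42.9%), against 16.2% of coding genes. PHF20 was at 13 of these 21 (61.9%) and at 5 of the 28 without a partner (17.9%). Over all coding genes the same shares were 42.0% with a partner and 16.6% without one. The 5 bound genes without a partner were MCM5, MCM9, POLD2, RFC1 and RFC2. Pairing was also done from the canonical TSSs of both genes alone, with binding still called at any TSS. Then 13 replication genes had a partner and 8 of them were bound, as were 10 of the 36 without, against 46.6% and 18.0% of coding genes. The split by partner thus depended on the TSSs used for pairing. The share of coding genes with a canonical partner is not given here.

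The peak held the canonical TSSs of both genes of the pair at ORC1 and PRPF38A, MCM8 and TRMT6, POLE3 and C9orf43, FEN1 and TMEM258, and WDHD1 and SOCS4. At ORC1 on chromosome 1 the peak (52404305 to 52404925, 621 bp) was centred at position -192 of ORC1 and 5 bp from the nearest annotated TSS of PRPF38A, a splicing factor gene whose canonical TSS is at position -179. At FEN1 on chromosome 11 the peak (61792358 to 61793157, 800 bp) was centred at position -154 of FEN1 and 45 bp from a TSS of TMEM258, and it also touched a promoter of FADS2. At WDHD1 the centre was 15 bp from a TSS of SOCS4. At ORC1 and WDHD1 the middle of the peak was thus closer to the partner than to the replication gene. At FEN1 this held only for the nearest annotated TSS of TMEM258, since its canonical TSS is at position -312 and about as far from the middle as that of FEN1. The MCM8 peak of 426 bp and the POLE3 peak of 669 bp were closest to the replication gene itself, with TRMT6 and C9orf43 on the other side.

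At the other bound pairs the peak lay toward the partner, over the replication gene alone or at a distant start. The CDC45 peak of 852 bp covered positions -1051 to -200, with its centre 92 bp from a TSS of UFD1. At ORC6 the peak of 682 bp ended at position -407 and was centred 236 bp from a TSS of VPS35. At MCM4 the partner was PRKDC, which encodes the catalytic subunit of DNA-PK, and the centre was 180 bp from its TSS. MCM2 paired with TPRA1, whose promoter window the MCM2 peak also touched. GINS1 with ABHD12, POLD3 with LIPT2 and RPA3 with UMAD1 were paired at distant starts, and GINS3 had its partner PRSS54 at a start at position -97391, where no peak was listed. In all, 14 of the 21 peaks at replication genes (66.7%) touched the promoter of another coding gene, against 806 of 3562 (22.6%) at coding genes. Counted by gene, since a shared peak is reached from each of its genes, 13 of the 18 bound replication genes (72.2%) and 1583 of the bound coding genes (38.2%) had such a peak. By the position of the centre, 8 of the 21 peaks had another gene's TSS as the nearest, a count that was not compared with the peaks at coding promoters. A peak over such a pair cannot be given to 1 of the genes from these lists.

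**Figure D4:**
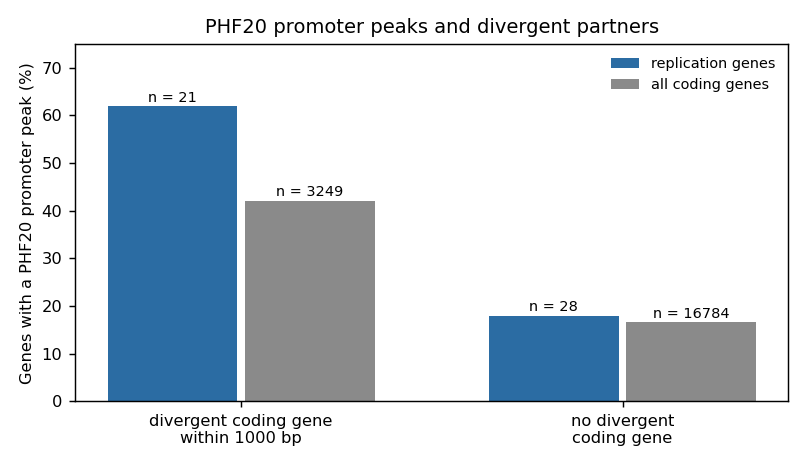
Share in percent of genes with a PHF20 promoter peak (vertical axis, bars), for genes with and without a divergent coding partner, for the replication genes and for all coding genes. With partners taken from any annotated TSS, PHF20 was at 61.9% of the 21 replication genes with a partner and 17.9% of the 28 without, against 42.0% and 16.6% of coding genes.

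The divergent pairs without a PHF20 peak were ORC3 with RARS2, ORC4 with MBD5, MCM7 with AP4M1, PRIM1 with HSD17B6, POLE with PXMP2, PCNA with CDS2, RPA1 with SMYD4 and TIPIN with MAP2K1. The partner had no peak in any of these 8 pairs. Its promoter window overlaps that of the unbound replication gene, so this follows in part from how the pairs were picked. Over the 31 unbound genes, the nearest PHF20 peak lay a median of 107560 bp from the promoter window and, for 28 of them, more than 10000 bp away. POLE2, which encodes a subunit of polymerase epsilon, was closest, 3372 bp from a peak on chromosome 14 (49692795 to 49693511, 717 bp) near KLHDC1. PCNA followed at 5879 bp from a peak of 1125 bp on chromosome 20 (5112454 to 5113578) near TMEM230, and POLD1 at 6703 bp from a peak of 629 bp on chromosome 19 (50375872 to 50376500) near NR1H2. ORC4 was the farthest, at 3266753 bp. None of the unbound genes had a peak within 1000 bp of its window. These distances were not compared with those of unbound coding genes.

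The promoters of the replication genes were mostly rich in CpG. With a ratio of observed to expected CpG of at least 0.6 as the limit, 45 of the 49 (91.8%) were CpG-rich, against 60.9% of coding genes, and PHF20 was at 17 of these (37.8%), against 29.7% of CpG-rich coding genes. PHF20L1 was at 1 of the 45 (2.22%), against 5.35%. The median ratio was 0.751 in the bound and also in the unbound replication genes, against 0.670 over coding genes and 0.744 over PHF20-bound coding genes, so the bound and unbound genes were alike in this median. The bound genes had a median of 9 annotated TSSs (range 2 to 31) and the unbound ones 7 (range 2 to 19), and more annotated TSSs give a gene more windows in which a peak can fall. With the canonical TSS alone, which gives each gene 1 window, 16 of the 49 were bound (32.7%, against 19.1% of coding genes), and with the outermost TSS alone 15 (30.6%, against 17.8%).

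Short motifs known for promoters of cycling and housekeeping genes were counted on both strands in the same 300 bases as printed above. A match is a description of the sequence and not a binding site. At least 1 of the E2F motifs TTTCCCGC, TTTCGCGC, TTTGCCGC and TTTGGCGC was in 23 of the 49 promoters (46.9%), against 4.36% of coding promoters. They were in 7 of the 18 PHF20-bound (38.9%) and 16 of the 31 unbound promoters (51.6%), whereas 6.27% of the PHF20-bound coding promoters had one. The bases scanned surround the canonical TSS, which was inside a PHF20 peak in only 12 of the 18 bound genes. Of these 12 genes, 6 had an E2F motif there. At the outermost TSSs the E2F motifs were in 3 of the 18 bound (16.7%) and 12 of the 31 unbound promoters (38.7%), against 3.82% of coding promoters. Thus the E2F letters were found in replication genes with and without a peak. The MCM6 promoter held 4 E2F matches in overlapping pairs and MCM3 held 2, both without a peak, while the bound MCM5 held 3 and MCM2 held 2 that overlap just downstream of the TSS.

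The ETS motif ACTTCCGG, which contains the core TTCCGG, was in 3 replication promoters (6.12%), those of GINS3, POLA1 and RFC4, against 6.14% of coding promoters and 16.5% of the PHF20-bound ones. Only GINS3 of the 3 was bound, with the first base of the motif at position -133. The core alone was in 38.8% of replication promoters, in 7 of the 18 bound and 12 of the 31 unbound, against 22.8% of coding and 46.0% of PHF20-bound coding promoters. Among the 12 bound genes with the canonical TSS inside a peak, 6 had the core. The E-box CACGTG was in 8 promoters (16.3%, against 8.76%), and its extension CACGTGAC was in 7 (14.3%, against 3.46%). At the outermost TSSs the E-box was in 5 (10.2%), near the 8.36% of coding promoters, and in the wider window in 16 (32.7%, against 18.3%). The 7 with the extension were MCM2 and FEN1, both bound, and ORC4, GMNN, MCM7, RPA1 and TIMELESS, all unbound. FEN1 held the extension on both strands around 1 E-box that begins at position -30.

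Of the other motifs, the CCAAT box CCAAT was in 30 promoters (61.2%, against 36.1% of coding promoters), 10 of the 18 bound and 20 of the 31 unbound. The Sp1 motif GGGCGG was in 37 (75.5%, against 61.3%), 14 bound and 23 unbound. The CHR motif, TTTGAA or TTCGAA, was in 2 (4.08%, against 12.8%), both unbound. In the wider window of 500 bp on each side of the TSS the order turned, with CHR in 21 (42.9%, against 37.1%), 12 of the 18 bound and 9 of the 31 unbound. The NRF1 motif GCATGCGC was in 4 (8.16%, against 4.27%). The CRE was in 3 (6.12%, against 2.69%), RFC1 with a peak and MCM10 and RFC3 without. The YY1 motif AAGATGGCG was in 0 of 49, against 2.84% of coding promoters, and 0 in 49 random draws would allow up to 6.12%. The differences in these 11 motifs between the 18 bound and the 31 unbound genes were not tested.

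**Figure D5:**
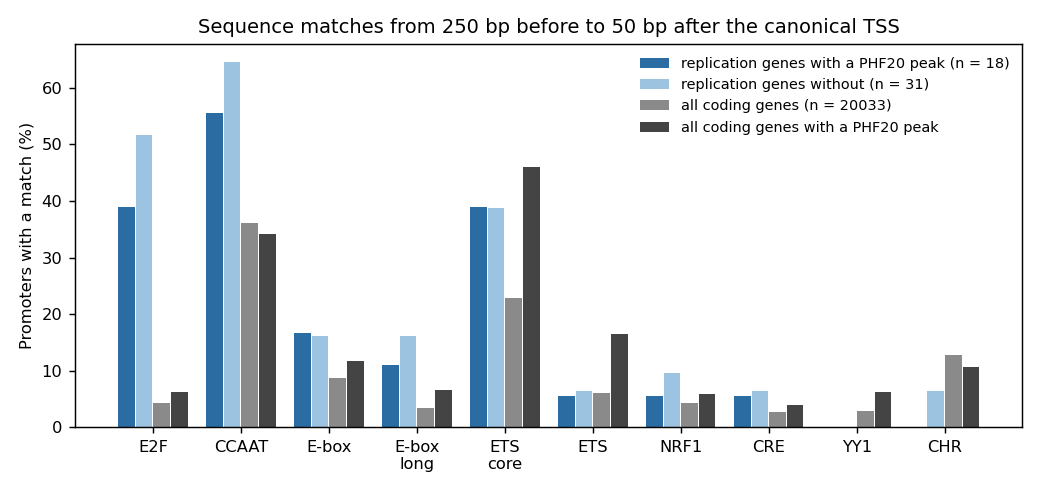
Share in percent of promoters with a match (vertical axis) for each motif except that of Sp1 (horizontal axis), in the PHF20-bound and unbound replication genes, all coding genes and the PHF20-bound coding genes (bars); E-box long is CACGTGAC. E2F motifs were in 38.9% of the 18 bound and 51.6% of the 31 unbound replication promoters, against 4.36% of coding promoters.

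Other genes of the replication programme, in 5 lists by role, carried PHF20 at 22 of 57 (38.6%) and PHF20L1 at 6 (10.5%), or 27.3% of those with PHF20. Over all coding genes these shares were 20.7%, 3.82% and 18.0%, and the lists are small, so that 1 gene moves a share widely. With peaks of at least 300 bp, PHF20L1 was at 3 of the 57 (5.26%, against 2.27%). The initiation regulators had PHF20 at 5 of 15 and PHF20L1 at 2, TOPBP1 and MTBP, whose products help to load CDC45. The lagging strand and clamp loading list had 4 of 10, with PHF20L1 at RNASEH2B, which encodes a subunit of the nuclease that removes ribonucleotides from DNA. The histone chaperones of the fork had 5 of 9, with PHF20L1 at SSRP1, a subunit of the FACT complex. The genes for the supply of deoxynucleotides had 2 of 10 (near the share of all coding genes), RRM1 and DUT, and no PHF20L1. The E2F and pocket protein genes had 6 of 13, with PHF20L1 at E2F4 and RBL1, which encode partners in repression of the cell cycle genes.

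The widest PHF20 peaks of these lists were at MTBP (1543 bp), RNASEH2B on chromosome 13 (50909400 to 50910673, 1274 bp) and RBL2 on chromosome 16 (53433931 to 53435058, 1128 bp). The MTBP peak was shared with MRPL13 and held a PHF20L1 peak of 391 bp. At RNASEH2B the PHF20L1 peak was 230 bp wide, and RBL2, which encodes a pocket protein like RB1, had none. At TOPBP1 a PHF20 peak of 1059 bp went with a PHF20L1 peak of 373 bp, and at RBL1 the widths were 418 and 271 bp. SSRP1 had a PHF20 peak of 694 bp and a PHF20L1 peak of 429 bp, and E2F4 had peaks of 591 and 277 bp. The PHF20L1 peak was the narrower one in these genes, as PHF20L1 peaks are in general, with list medians of 314 and 599 bp. The ASF1A peak is the same as that counted for MCM9.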

How the data were processed

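Chromatin from HA ChIP and input samples of U2OS cells was sequenced by the authors, and the reads were mapped to hg38 (Bowtie 1.1.2), keeping unique reads without duplicates. Peaks were called with MACS2 2.2.7.1, with reads extended to 200 bp and blacklisted regions removed (versions per the submitters' processing notes). The deposited lists hold the peaks of the best replicate at a p-value limit of 0.01 that overlap peaks of the other replicates called at 0.05. Their values are peak positions in bp, so a stricter limit could not be tried and the depth per sample cannot be taken from them. No column of a single sample was left unused (0).

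TSSs came from GENCODE release 44, a later release than that used by the authors, and overlaps, widths and motif matches were computed in Python 3.11.15 with numpy 2.4.6 and matplotlib 3.10.9. The overlap and motif steps were tested on simulated data. The members and lists were chosen with earlier results of these data known, including the motifs ACTTCCGG and CACGTGAC. All 49 genes were named. Described in most detail were those with a PHF20L1 peak, with several peaks, or with the 5 widest or 3 narrowest PHF20 peaks. So were the 3 unbound genes closest to a peak. Outside this rule, chromosome positions of peaks were also given for ORC1, FEN1 and MCM9, and they were left out for MCM4. Other TSS sets, windows, overlaps and peak widths were tried. The KANSL3 peaks and the RNA-Seq of the study were not analysed here.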

Additional observations from a re-analysis of the deposited data

How the results depend on the processing

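The count of PHF20-bound replication genes was 18 with windows of 500 or 2500 bp on each side and with the peak centre inside the window. The share of coding genes was 20.4%, 21.4% and 20.5% in these settings. The count was 17 with protein-coding transcripts alone (without MCM9), 16 with canonical TSSs (without MCM9 and RPA3) and 15 with the outermost TSSs (without GINS3, MCM9 and RPA3), against 20.3%, 19.1% and 17.8% of coding genes. PHF20L1 was at RFC1 alone in each of these settings. With peaks of at least 300 bp, 17 replication genes (34.7%, against 18.6% of coding genes), 455 PHF20L1-bound coding genes and 3 PHF20L1-bound genes of the other replication lists (5.26%) were left. With peaks no narrower than the median width of each list, 12 replication genes remained (24.5%, against 12.1% of coding genes), without GINS1, MCM2, MCM4, MCM8, MCM9 and POLD2, as did 2416 coding genes for PHF20, 423 for PHF20L1 and 3 of the other replication genes for PHF20L1. Both settings keep fewer peaks by construction. The canonical TSSs of both genes, tried after the data had been seen, gave 8 bound genes with a divergent partner in place of 13. RefSeq starts, also added later, were found for 43 genes, of which 13 had PHF20 (30.2%, against 19.8% of coding genes with such a start). Of the 18 bound genes 14 had a RefSeq start, and MCM9 was the one of these without a peak there. Of the motif counts, 9 changed by more than 1.5 times or from 0, and 13 changed by less or not at all. With 500 bp on each side of the TSS the ETS core was in 30 promoters in place of 19 (61.2%). Over coding promoters its share was 39.8% in place of 22.8%. It was in 10 of the 18 bound and 20 of the 31 unbound replication promoters. The E-box was in 16 in place of 8 (32.7%, against 18.3% of coding promoters). CHR was in 21 in place of 2 (42.9%, against 37.1%) and YY1 in 1 in place of 0 (2.04%, against 4.37%). At the outermost TSSs, E2F was in 15 in place of 23 (30.6%, against 3.82%) and the E-box in 5 (10.2%, against 8.36%). CACGTGAC was in 4 in place of 7 (8.16%, against 2.87%), CHR in 5 (10.2%, against 14.8%) and YY1 in 1 (2.04%, against 1.88%).

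No paired analysis was possible because each final list was drawn from all replicates used and gives no peaks or values per replicate. Leaving out each replicate was not possible for the same reason, nor was any check of depth.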

Other observations

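Motif matches were also counted within the peaks themselves, which differ in width. E2F motifs were in 6 of the 21 PHF20 peaks at replication genes (28.6%), with 0.658 matches per kb, against 9.99% of the PHF20 peaks at coding promoters and 0.154 matches per kb. The ETS motif ACTTCCGG was in 3 of the 21 (14.3%, against 17.6%) and its core TTCCGG in 13 (61.9%, against 55.0%). The CHR motif, in 2 of the 49 promoters of 300 bases but in 21 with the wider window, was in 9 of the 21 peaks (42.9%, against 23.9%). Per kb of peak the gap was smaller, with 0.658 CHR matches against 0.448.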
